A study of Mus musculus with 6 samples.

Results

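The SMAD transcription factors (Smad1, Smad2, Smad3, Smad4, Smad5, Smad6, Smad7 and Smad9) were followed in lung RNA of LPS-injected mice that received saline or recombinant human thrombomodulin (rhTM). The members are all the SMAD genes of the mouse, and a probe was assigned to a member through the transcript accession that the scanner output gives for it. The array carried 15 such probes for 8 genes. Of these, 7 were well above background on all 6 arrays. Smad9 passed the filter on dim probes through the saline arrays alone, the group where it was higher, so its difference is a description without a test. In all, 16366 genes were tested. Each gene is described by its brightest probe, and its other probes are given beside it.

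The mice were 10-week-old C57BL6 males that were starved for 16 h and then injected intraperitoneally with LPS at 20 mg/kg. At 3 and 24 h after LPS, 3 mice received saline and 3 received rhTM, a soluble form of an endothelial anticoagulant receptor. Lungs were taken 30 h after LPS, and total RNA of each mouse was hybridised to 1 array in 1 colour (Agilent SurePrint G3 Mouse). Every mouse in the comparison had received LPS, so the values say how rhTM-treated and saline-treated endotoxaemic lungs differed and nothing about lungs without LPS.

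SMAD proteins carry signals of the TGF-β family from the cell membrane to the nucleus. Receptors for bone morphogenetic proteins (BMPs) phosphorylate SMAD1, SMAD5 and SMAD9, receptors for TGF-β and activins phosphorylate SMAD2 and SMAD3, and both kinds join SMAD4 before they bind DNA. SMAD6 and SMAD7 are inhibitors that the same signals induce, which closes a negative feedback loop. In the lung these pathways act in vessel maintenance, epithelial repair and matrix deposition. The arrays measured mRNA only. SMAD activity depends largely on phosphorylation, which was not measured.

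The brightest probes of the BMP-type members Smad1 and Smad5 were those whose rhTM and saline values did not overlap in the scanner output (by the authors' table they were those of Smad3 and Smad7), and the 250 bases upstream of a transcription start are shown for each of Smad1 and Smad5. They are from RefSeq, assembly GRCm38.p6, written 5′ to 3′ in the direction of the gene. The Smad1 stretch is chr8:79399429-79399678 on the minus strand. The Smad5 stretch is chr13:56702802-56703051 on the plus strand, before 1 of 3 annotated starts of that gene, and was chosen because it holds the motif marked here, which the stretches before the other starts do not. Capitals mark GGCGCC, a GC-rich element of the kind bound by BMP-type SMADs.
Smad1: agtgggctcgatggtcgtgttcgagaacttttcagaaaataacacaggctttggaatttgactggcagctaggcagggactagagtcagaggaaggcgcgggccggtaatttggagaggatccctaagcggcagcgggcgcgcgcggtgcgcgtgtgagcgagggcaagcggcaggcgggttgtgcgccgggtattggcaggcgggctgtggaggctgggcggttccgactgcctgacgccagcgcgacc
Smad5: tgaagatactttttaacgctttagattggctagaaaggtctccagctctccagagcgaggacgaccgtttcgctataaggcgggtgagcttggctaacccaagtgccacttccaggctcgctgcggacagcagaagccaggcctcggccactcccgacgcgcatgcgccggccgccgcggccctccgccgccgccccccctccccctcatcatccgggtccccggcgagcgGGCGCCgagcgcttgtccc

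Both stretches were rich in G and C (63.6% in Smad1 and 66.4% in Smad5). Besides GGCGCC, the upstream stretches were searched on both strands for CAGACA, a SMAD box, and for GTCTAGAC, its palindromic form, neither of which contains another motif of the 3. Among 32851 upstream stretches of the same length from all genes in the table, GGCGCC lay in 9.59%, CAGACA in 17.1% and GTCTAGAC in 0.167%. Smad1, Smad3 and Smad6 held none of these letters upstream, Smad9 held GGCGCC 1 time, and no stretch of Smad5 held CAGACA or GTCTAGAC. Smad2, Smad4 and Smad7 had no upstream stretch available and were not searched. A match is a description of the letters and not a binding site.

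Signals below are log2 processed intensities minus the 75th percentile of their array, so that 0 is the 75th percentile, and differences are rhTM minus saline on that log2 scale. The brightness of a probe depends on the probe, so levels are compared between arrays and not between genes. Group means on the linear scale are multiples of the 75th percentile of the array, given as mean ± SD (n = 3). Signal differences were tested with limma over all genes, with Benjamini-Hochberg adjustment. With 3 arrays a group, an exact two-sided permutation test of 1 gene cannot go below p = 0.10. In whole-lung RNA, a change in the share of a cell type and a change in RNA per cell cannot be told apart.

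The authors deposited the same arrays in 2 forms, the scanner output and a value table, and these disagree on which mouse is which. In the table, the column of saline replicate 1 holds the values of the array deposited as rhTM replicate 2, and the reverse (99.9% of 56207 probes equal within 0.1%). Neither the labels nor the methods settle it. Where the groups of a gene do not overlap in 1 of the forms, they must overlap in the other, since the 2 arrays change sides. Values below are from the scanner output as assigned in the deposit, and the value by the table is given beside each member and each pathway list. The 75th percentile lay between 675 and 850 intensity units. On each array 36002 to 40503 of the 56207 probes used were well above background, and no SMAD probe or other probe was saturated. The spike-in slope was 0.826 on saline replicate 1, outside the range set in the scanner software, and 1.07 to 1.09 on the other arrays. The arrays lay on 2 slides, with saline replicate 1 and rhTM replicate 3 on slide 2 and the other 4 arrays on slide 1. Markers of lung cells were present: 7 of 7 alveolar type 2 markers and 10 of 10 endothelial markers were well above background on every array.

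None of the 7 SMAD genes measured on all arrays passed the test between rhTM-treated and saline-treated mice (limma, adjusted p = 0.9999 for each), against 0% of all genes. At unadjusted p under 0.05 the count was also 0, against 306 of 16366 genes, or 1.87%. The mean was higher in rhTM-treated mice for 6 of 8 members, and for 50.7% of all genes. The rhTM arrays all lay above the saline arrays for 2 members, Smad1 and Smad5, against 2.95% of all genes. No member had every rhTM array below every saline array, a pattern that 2.57% of genes showed. The median difference was 0.07 over the members and 0.00 over all genes.

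**Figure D1:**
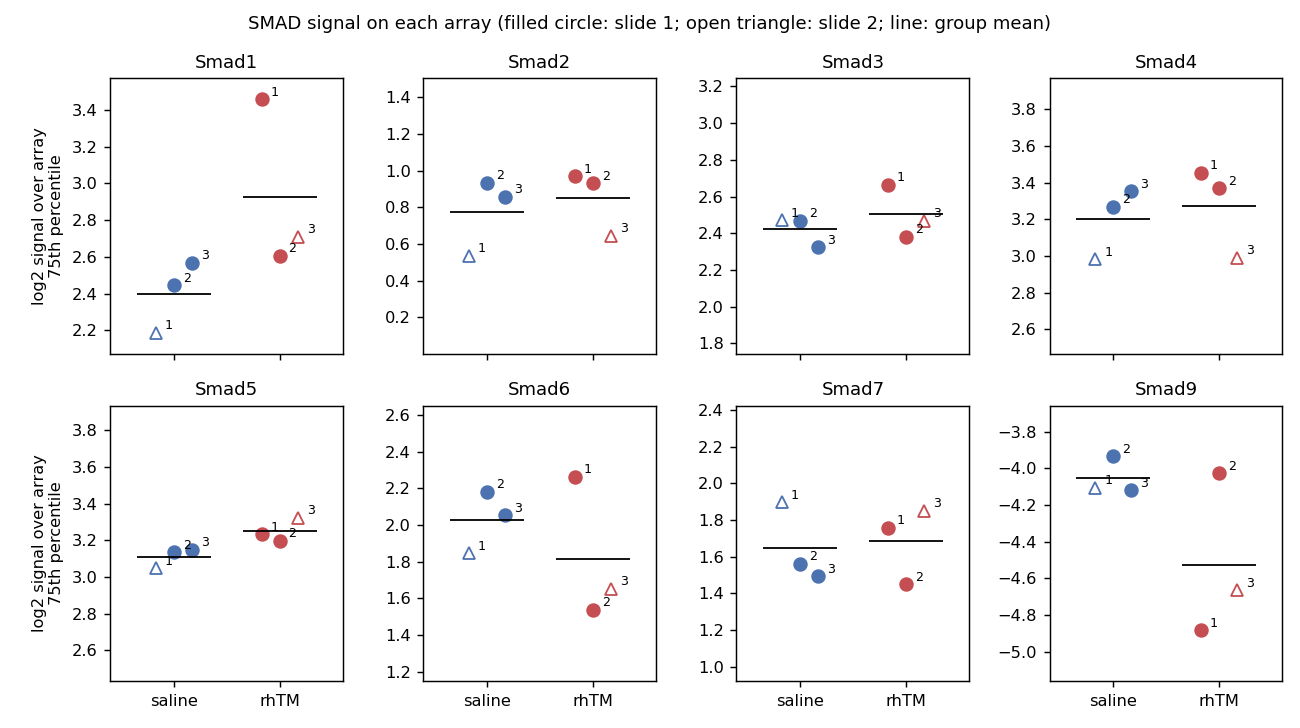
Scaled log2 signal of the 8 SMAD genes on each array (vertical axes, log2 signal over the array's 75th percentile, each panel with its own range of equal height) for saline and rhTM; digits are replicate numbers, filled circles are slide 1, open triangles are slide 2 and lines are group means. Smad1 on rhTM replicate 1 stands at 3.46 above 5 arrays between 2.19 and 2.71, Smad5 is higher on all 3 rhTM arrays, and both slide 2 arrays of Smad2 and Smad4 lie lowest.

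Smad1, a receptor-activated SMAD of the BMP branch, had the largest difference among the members by the scanner output with all arrays. Its signal was 2.19, 2.45 and 2.57 on saline arrays 1, 2 and 3 and 3.46, 2.61 and 2.71 on rhTM arrays 1, 2 and 3. All 3 rhTM arrays lay above all 3 saline arrays, but rhTM replicates 2 and 3 exceeded the highest saline array only narrowly and replicate 1 stood far above the rest. On the linear scale the mean was 7.88 ± 2.71 in rhTM-treated and 5.31 ± 0.699 in saline-treated mice. The difference was 0.52 (SE 0.25, 95% interval −0.06 to 1.11), or 1.44-fold (limma, unadjusted p = 0.072, adjusted p = 0.9999, exact permutation p = 0.10). A difference of this size or larger in either direction was uncommon in the scanner output, where 96.2% of genes differed by less. Without rhTM replicate 1 the difference was 0.26, and it was 0.53 within slide 1 and 0.52 between the 2 arrays of slide 2. With the table's assignment of the arrays, the groups overlapped and the difference was 0.25 (adjusted p = 0.719 in limma). There 66.5% of genes differed by less, and Smad7 (0.33) and Smad9 (−0.52) differed by more.

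Smad5, which is activated by the same receptors as Smad1, moved little but in the same direction on its brightest probe. The signal was 3.05, 3.13 and 3.15 on the saline arrays and 3.23, 3.20 and 3.32 on the rhTM arrays. Each rhTM array was above each saline array, by a margin that was small beside the intervals. Means were 9.52 ± 0.427 and 8.64 ± 0.330, with a difference of 0.14 (SE 0.11, 95% interval −0.12 to 0.40; limma, adjusted p = 0.9999, exact permutation p = 0.10). The other Smad5 probe gave −0.07 with overlapping groups. The authors' table gave 0.04 and overlapping groups.

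Smad9, the remaining BMP-type member, was dim. Its only probe read 40.0, 53.7 and 46.1 intensity units on the saline arrays and 25.0, 52.1 and 26.6 on the rhTM arrays, and it was not well above background on rhTM replicate 1. The scaled log2 signal was −4.11, −3.94 and −4.12 in saline-treated and −4.88, −4.03 and −4.66 in rhTM-treated mice. Replicates 1 and 3 of rhTM were the lowest arrays, while rhTM replicate 2 lay within the saline range. The difference was −0.47 (SE 0.23), with rhTM replicate 1 at background. With another background correction (normexp) it shrank to −0.09. In the authors' table it was −0.52, and the groups again overlapped.

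The TGF-β-type members Smad2 and Smad3, which relay signals of TGF-β and activin receptors, differed by less than the spread between replicates. Smad2 read 0.54, 0.94 and 0.86 on the saline arrays and 0.97, 0.93 and 0.65 on the rhTM arrays. Its lowest value in each group was the array on slide 2. The Smad2 difference was 0.07 (SE 0.16, 95% interval −0.31 to 0.45), with 0.05 by its other probe and −0.19 by the authors' table. Smad3 read 2.47, 2.47 and 2.32 on the saline arrays and 2.66, 2.38 and 2.47 on the rhTM arrays. It was the member with the narrowest spread in saline-treated mice after Smad5. The Smad3 difference was 0.08 (SE 0.13, 95% interval −0.22 to 0.39), and its other probe gave −0.03. With the table's assignment each rhTM array of Smad3 lay above each saline array, with a difference of 0.14 (adjusted p = 0.542 in limma).

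Smad4, the common partner of both branches, read 2.98, 3.27 and 3.35 on the saline arrays and 3.45, 3.37 and 2.99 on the rhTM arrays. The groups covered nearly the same range, and as with Smad2 the lowest array of each group was the one on slide 2. The difference was 0.07 (SE 0.17, 95% interval −0.34 to 0.48), and −0.19 by the authors' table. Smad4 had 4 probes, all well above background on the 6 arrays, and the others gave 0.01, −0.16 and −0.24. The signs of the 4 probes thus differed, and every interval included 0.

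Smad6, the inhibitor that acts mainly on the BMP branch, had a lower mean in rhTM-treated mice. It read 1.85, 2.18 and 2.05 on the saline arrays and 2.26, 1.54 and 1.65 on the rhTM arrays. Replicates 2 and 3 of rhTM were below every saline array and rhTM replicate 1 was above every saline array. The difference was −0.21 (SE 0.22, 95% interval −0.72 to 0.30; exact permutation p = 0.50). Without rhTM replicate 1 it was −0.43, and it was 0.00 by the authors' table. Smad6 has 1 probe on the array.

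Smad7, the inhibitor with the broader range of receptors, gave 2 answers. Its brightest probe read 1.90, 1.56 and 1.49 on the saline arrays and 1.76, 1.45 and 1.85 on the rhTM arrays, with a difference of 0.04 (SE 0.17, 95% interval −0.36 to 0.44). The 3 highest arrays by this probe were both arrays of slide 2 and rhTM replicate 1. The other probe read −2.51, −2.47 and −2.72 on the saline arrays and −3.00, −2.79 and −2.88 on the rhTM arrays. Here every rhTM array lay below every saline array, while 6.10% of the 36061 probes tested did not overlap in either direction, and the difference was −0.32 (SE 0.14, 95% interval −0.65 to 0.00; limma, adjusted p = 0.9999, exact permutation p = 0.10). Both probes are assigned to the same transcript, and which one follows Smad7 mRNA better was not tested.

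The brightest probe of Smad7 separated the groups by the authors' table. There the values were 1.45, 1.56 and 1.49 in saline-treated and 1.76, 1.90 and 1.85 in rhTM-treated mice, a difference of 0.33 (95% interval 0.10 to 0.56; limma, unadjusted p = 0.011, adjusted p = 0.314). Linear means were then 3.57 ± 0.172 and 2.83 ± 0.109. Its other probe gave −0.14 by the table, with overlapping groups. In the table Smad3 and Smad7 were the 2 of 8 members whose rhTM arrays all lay above the saline arrays, a pattern of 9.68% of genes there, and 4 of 8 members had a higher mean in rhTM-treated mice against 46.0% of genes. Smad7 was the member with an unadjusted p under 0.05 in limma among those measured on all arrays, where 14.0% of genes had one. Smad1 and Smad5 did not separate the groups by the table, and Smad3 and Smad7 did not by the scanner output. This follows from the exchange of 2 arrays alone, since no gene can separate the groups under both assignments.

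**Figure D2:**
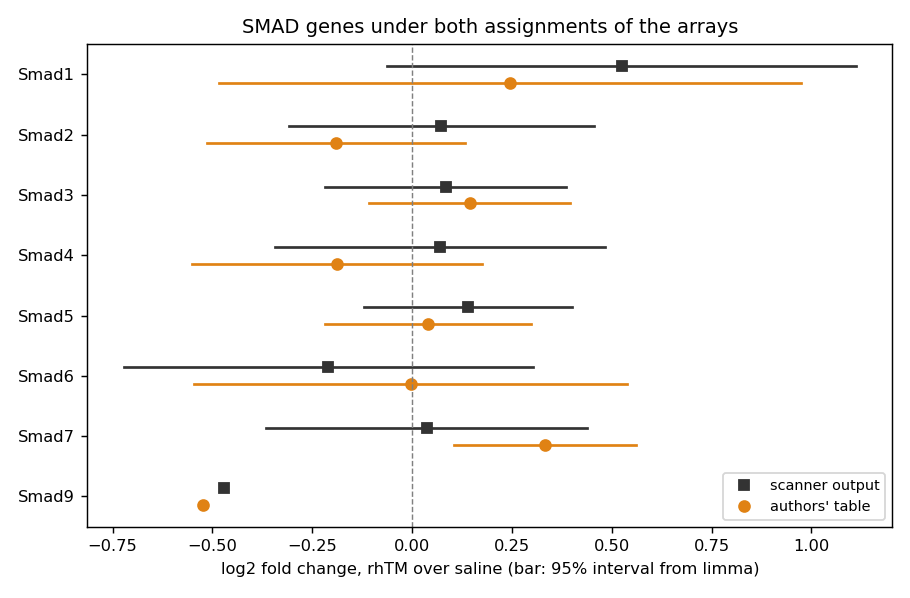
Log2 fold change of each SMAD gene, rhTM over saline (horizontal axis), with its 95% interval from limma except for Smad9, by the scanner output (squares) and by the authors' table (circles). The scanner intervals all cross 0, the table interval of Smad7 (0.10 to 0.56) does not, and Smad2 and Smad4 change sign between the assignments.

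**Figure D3:**
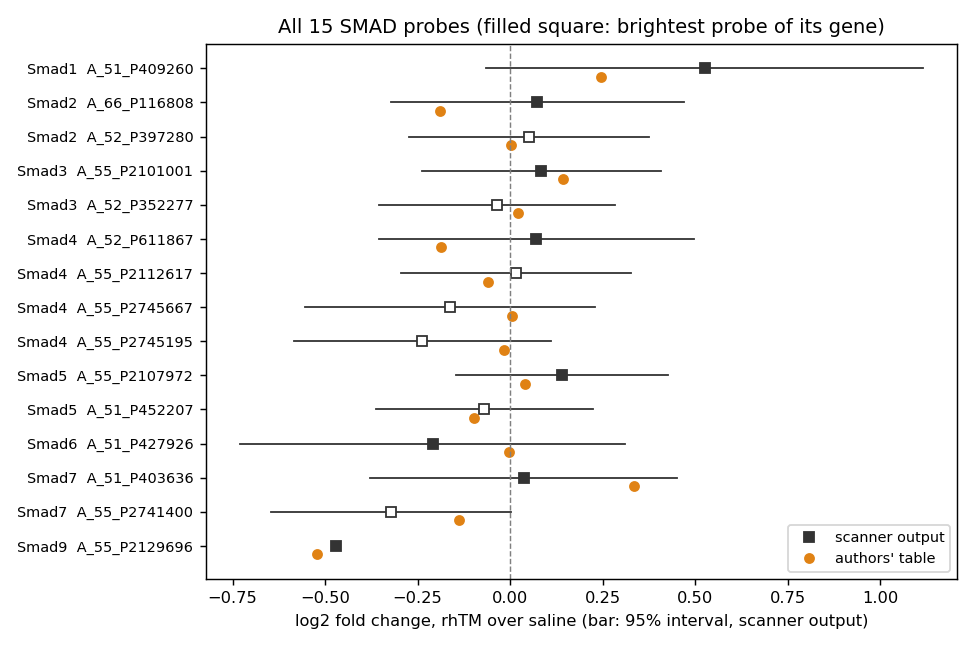
Log2 fold change of all 15 SMAD probes, rhTM over saline (horizontal axis), named by gene and probe; squares with 95% intervals (none for Smad9) are the scanner output, filled where the probe is the brightest of its gene, and circles are the authors' table. Probes of Smad3, Smad4, Smad5 and Smad7 lie on both sides of 0, with Smad7 at 0.04 and −0.32.

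By the scanner output, Smad2, Smad4, Smad6 and Smad7 differed more between slides than between treatments. For Smad6 these differences were close, −0.26 and −0.21 (SE 0.22 each). The share of all genes with this pattern was not counted. With the treatment group in the fit, Smad2 was lower on slide 2 by −0.33 (SE 0.10; limma, unadjusted p = 0.016, adjusted p = 0.205) and Smad4 by −0.37 (SE 0.10; unadjusted p = 0.012, adjusted p = 0.180). Smad7 was higher on slide 2 by 0.31 (SE 0.13; limma, adjusted p = 0.312). For Smad2, Smad4 and Smad7, 3 of 8 members, both slide 2 arrays lay outside all 4 slide 1 arrays, as they did for 32.7% of genes (19.7% below, as for Smad2 and Smad4, and 13.0% above, as for Smad7). The slide difference was −0.26 (SE 0.22) for Smad6 and −0.32 (SE 0.25) for Smad1, both with overlapping slides, −0.14 for Smad9 and 0.01 each for Smad3 and Smad5. The summed levels of 6 of 12 marker lists on slide 2 also lay outside slide 1. The summed log2 level of 7 alveolar type 2 markers was 10.5 and 10.3 on slide 2 against 9.80 to 10.1 on slide 1, and 4 of the 7 lay above all slide 1 arrays. The sum of 4 B cell markers was 1.37 and 1.89 against 2.17 to 2.25, with 1 of the 4 below, and that of 6 platelet markers 3.38 and 3.78 against 3.79 to 4.79, with 2 of the 6 below. Fibroblast markers summed to 7.16 and 7.49 against 6.86 to 6.96, with none of the 8 outside slide 1 on its own. The sums of 6 T cell markers (4.66 and 4.48 against 2.65 to 2.77) and of 8 smooth muscle and pericyte markers (6.36 and 6.43 against 5.55 to 5.80) were higher on slide 2, but 1 marker of each list lay above all slide 1 arrays, and 1 T cell marker lay below them. Their part in the SMAD values was not tested. None of the 7 members measured on all arrays passed the adjusted test for slide, which 233 genes, or 1.42%, did. This comparison was chosen after the data were seen. By the scanner output each slide holds both groups. With the table's assignment slide 2 holds rhTM arrays only, and for Smad7 the 3 rhTM arrays are then both arrays of slide 2 and rhTM replicate 1. A slide block on those values rests on slide 1, where rhTM replicate 1 alone meets 3 saline arrays, and it gave 0.26 for Smad7 and 0.92 for Smad1, which describe that 1 array.

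Several members had their extreme value on the same array. On rhTM replicate 1, Smad1, Smad2, Smad3, Smad4 and Smad6 had their highest value and Smad9 its lowest, so that 6 of 8 members had an extreme there. The same array was the highest or lowest for 56.4% of all genes, and the highest for 29.8%. The summed level of 7 of 12 marker lists was also highest or lowest there. The summed log2 level of 6 platelet markers was 4.79 against 3.38 to 3.90 on the other arrays, with 5 of the 6 well above background on every array. The summed level of 5 ciliated cell markers was 3.51 against 2.03 to 3.12, that of 4 erythroid markers 9.77 against 9.22 to 9.61, and that of 6 neutrophil markers 10.0 against 9.63 to 9.89. B cell markers were highest by a margin of under 0.01. Alveolar type 2 markers were lowest, at 9.80 against 9.94 to 10.5, and so were endothelial markers, at 8.42 against 8.47 to 8.63. Their part in the SMAD values of this array was not tested. Without rhTM replicate 1, the rhTM arrays of Smad6 lay below all saline arrays, and 5 of 8 members had a higher mean. Those of Smad1 and Smad5 stayed above, as they must, since removing an array cannot make separate groups overlap. Of all genes 10.8% then did not overlap. Without both exchanged arrays, 4 arrays remained, and 41.2% of genes did not overlap. The rhTM arrays lay above for Smad1, Smad3, Smad5 and Smad7, which was fixed by their lack of overlap in the scanner output or the table. Those of Smad9 lay below, with rhTM replicate 1 not well above background.

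Ratios within an array, which do not depend on the scaling of the array, were formed for all 28 pairs of members, and those described here were picked after the values were seen. The log2 ratio of Smad6, the BMP-branch inhibitor, over Smad1, its BMP-branch target, was −0.34, −0.26 and −0.51 on the saline arrays and −1.19, −1.07 and −1.06 on the rhTM arrays. Both groups were tight, with SDs of 0.129 and 0.0757, and they did not overlap. The change between groups was −0.73 (exact permutation p = 0.10), and leaving out each array of the scanner output in turn gave −0.81 to −0.68. It is not particular to Smad6: for 30.6% of all genes the ratio over Smad1 was lower on every rhTM array. The change was −0.25 by the authors' table, with overlapping groups (exact permutation p = 0.60), where 2.91% of genes had such a ratio. Leaving out each array of the table in turn gave −0.51 to −0.07. The pair Smad1 over Smad4 also did not overlap, and the remaining pairs did. Thus 2 of 28 pairs, which share members, did not overlap. Both are with Smad1, over which 30.6% of all genes had a lower ratio on every rhTM array. In the table's assignment 7 of 28 did not overlap. Among these were Smad3 over Smad9 and Smad7 over Smad9, with Smad9 not well above background on rhTM replicate 1. Smad1 over Smad6 and Smad1 over Smad4 overlap there, as the exchange of 2 arrays requires. The share over all pairs of genes was not counted.

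Smad7 over Smad3, the inhibitor and a target of the TGF-β branch, changed by −0.05 (exact permutation p = 0.60), and by 0.19 in the table's assignment (exact permutation p = 0.20). Smad5 over Smad1 changed by −0.39 (exact permutation p = 0.30; −0.21 by the table), of which the largest share came from rhTM replicate 1. Smad3 over Smad2 changed by 0.01 by the scanner output, and by 0.33 with groups that did not overlap by the table (exact permutation p = 0.10).

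The genes whose profile over the 6 arrays was nearest to each member are given as a description, since among 16365 candidates and 6 arrays the nearest is close for any gene. For Smad1 the nearest was Rfk, a riboflavin kinase (Pearson r = 0.994), and among pathway genes Fos, an AP-1 subunit that pairs with SMADs on DNA (r = 0.980). Smad2 lay nearest to Ntmt1 (r = 0.998) and to Ctdspl, a phosphatase (r = 0.973). For Smad3 these were Cdc34, a ubiquitin-conjugating enzyme (r = 0.994), and the activin subunit Inhba (r = 0.955). The profile of Smad4 was closest to Rnmt, the mRNA cap methyltransferase (r = 0.999), and to Bambi, a decoy receptor (r = 0.988). Smad5 was nearest to Tex44 (r = 0.980) and Pmepa1, a TGF-β-induced inhibitor (r = 0.941). For the inhibitors, Smad6 paired with Esrp2, an epithelial splicing factor (r = 0.993), and Bmpr1b, a BMP receptor (r = 0.835), and Smad7 with Kdm6b, a histone demethylase (r = 0.998), and the ligand Gdf5 (r = 0.941). Smad9 was nearest to Mpp5, a cell polarity protein (r = 0.996), and the ligand Bmp6 (r = 0.961).

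The rest of the pathway was measured through 133 genes listed by role, of which 125 were tested. None passed the test in either direction (limma, 0% of all genes), and 3 did at unadjusted p under 0.05, as 1.87% of all genes did. The mean was higher in rhTM-treated mice for 70 of 125, and the median difference was 0.02. For 6 genes the rhTM arrays lay above all saline arrays and for 2 below, together 6.40% against 5.52% of all genes. With the table's assignment, 10 lay above and 9 below, 15.3% of 124 against 21.7% of all genes. The 8 genes named in the next paragraphs for lack of overlap in the scanner output overlap there, as the exchange of 2 arrays requires.

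Among ligands, 8 of 17 had a higher mean in rhTM-treated mice and none separated the groups, whereas with the table's assignment 6 of 16 were higher, 2 lay above and 2 below. The median was −0.04, and −0.13 by the table. Inhbb, an activin subunit, had the largest positive difference, with 2.57, 2.34 and 2.99 on the saline arrays and 5.17, 2.29 and 4.22 on the rhTM arrays. The range within rhTM-treated mice was wider than the difference of 1.26 (SE 0.68). Bmp6, a ligand upstream of Smad1, Smad5 and Smad9, had the largest negative one, −0.85 (SE 0.41). For extracellular antagonists, 4 of 13 were higher (3 of 13 by the table, medians −0.08 and −0.16), with Fst, which traps activins, at 0.41 (SE 0.23) and Lefty1 at −0.18 (SE 0.23) as the extremes.

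Of the receptors, 6 of 14 had a higher mean in rhTM-treated mice, and 5 of 14 by the table, with medians of 0.00 and −0.06. Eng, the endothelial co-receptor endoglin, read 3.87, 4.18 and 4.06 on the saline arrays and 3.60, 3.81 and 3.73 on the rhTM arrays. Every rhTM array was below every saline array, with a difference of −0.32 (SE 0.13; limma, unadjusted p = 0.046, adjusted p = 0.9999). It was −0.28 by the authors' table, where the groups overlapped. The endothelial marker list gave summed log2 levels of 8.42 to 8.57 in rhTM-treated and 8.47 to 8.63 in saline-treated mice, with 4 of 10 markers higher in rhTM-treated mice. In the table's assignment 3 of 10 were higher, 4 of 10 lay below on every rhTM array, as 12.0% of all genes did, and the median was −0.26. Its part in the Eng value was not tested.

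Proteins that hold, move or degrade SMADs were listed in 2 groups, with medians of 0.01 and 0.04 (−0.06 and −0.03 by the table). Among 10 anchors and transport factors 5 were higher (4 by the table), with differences from −0.23 to 0.31, and Zfyve9, the anchor that presents SMAD2 and SMAD3 to the receptor, was lower on all rhTM arrays (−0.23, SE 0.12). Of 20 ubiquitin enzymes and phosphatases 12 were higher (9 by the table), with differences from −0.45 to 0.33, and the ubiquitin ligases Itch (0.13, SE 0.11) and Rnf111 (0.14, SE 0.11) were above on all rhTM arrays. Rnf111 marks SMAD7 and SKI family proteins for degradation.

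In the nucleus, 12 of 16 coactivators and partners had a higher mean in rhTM-treated mice, with a median of 0.03 (13 of 16 and 0.06 by the table). Fos read 2.12, 2.30 and 2.26 on the saline arrays and 3.04, 2.31 and 2.39 on the rhTM arrays, a profile like that of Smad1, with rhTM replicate 1 apart and the others just above the saline range (0.35, SE 0.21). Runx1, a SMAD-binding factor of blood cell development, was above by 0.19 (SE 0.11). Of 13 corepressors 10 were higher with a median of 0.06 (7 and 0.00 by the table), none separated the groups, and Tgif1 (0.37, SE 0.28) and Mecom (−0.05, SE 0.20) were the extremes.

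Target genes are a readout of SMAD activity that other factors also drive. Of 17 TGF-β targets 11 were higher in rhTM-treated mice, with a median of 0.11. That median was 0.00 by the table, where 9 of 17 were higher, and over all alternatives it changed sign, from −0.14 by the table without its rhTM replicate 3 to 0.25 by the scanner output without rhTM replicate 1. Markers of fibroblasts were higher for 7 of 8 genes (median 0.16; 5 of 8 and 0.19 by the table), of which 3 collagen genes are also in the target list. Their summed log2 level was 6.86 to 7.16 in saline-treated and 6.91 to 7.49 in rhTM-treated mice. Smooth muscle and pericyte markers were higher for 5 of 8 genes (median 0.17; 4 of 8 and 0.04 by the table), of which Acta2 and Tagln are also targets. The part of either list in the target values was not tested. Fn1, the matrix protein fibronectin, read 4.29, 4.47 and 4.30 on the saline arrays and 4.50, 4.82 and 4.82 on the rhTM arrays, above on every array (0.36, SE 0.14; limma, unadjusted p = 0.039, adjusted p = 0.9999). The Fn1 difference by the authors' table was close to none (0.00). Of 8 BMP targets 5 were higher, with a median of 0.04 (6 and 0.09 by the table), and Heyl, a Notch- and BMP-responsive repressor, was above on every rhTM array (0.49, SE 0.20; limma, unadjusted p = 0.047, adjusted p = 0.9999). The Id genes, the best known BMP targets, were picked here after their values were seen: Id1 differed by 0.29 (SE 0.16), Id2 by 0.20 (SE 0.20), Id3 by 0.01 (SE 0.12) and Id4 by −0.05 (SE 0.22), all with overlapping groups.

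**Figure D4:**
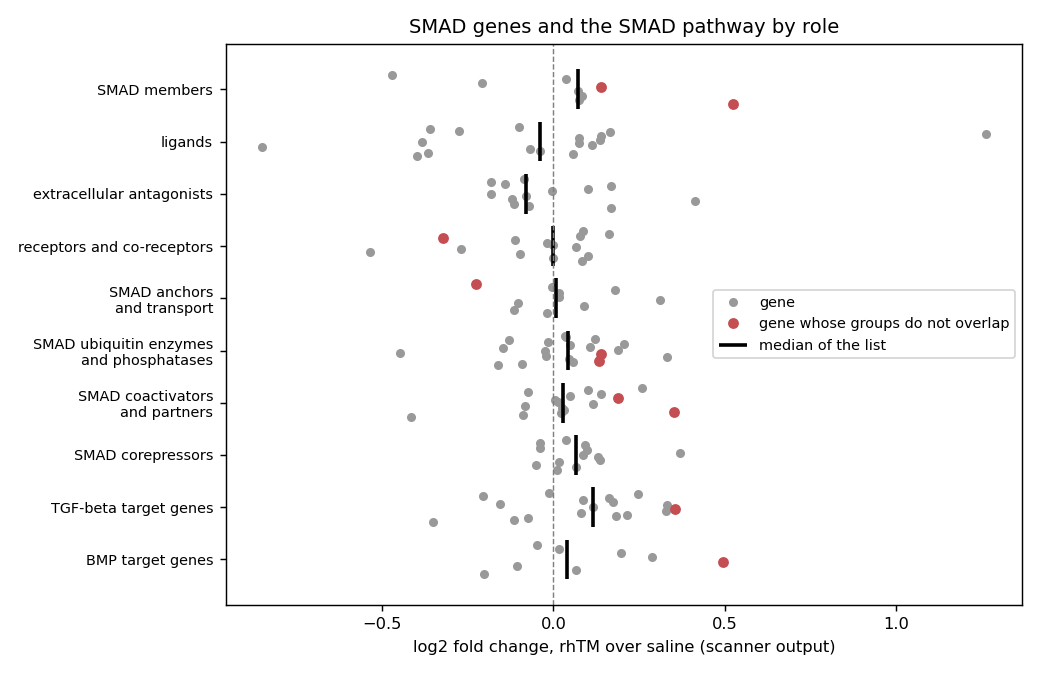
Log2 fold change of each SMAD gene and pathway gene, rhTM over saline, scanner output (horizontal axis), by role; grey points are genes, red points are genes whose groups do not overlap, and black bars are list medians. Medians lie between −0.08 for the antagonists and 0.11 for the TGF-β targets, and Inhbb at 1.26 and Bmp6 at −0.85 are the widest points.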

How the data were processed

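Groups were taken from the sample labels (3 saline and 3 rhTM arrays). The authors deposited Feature Extraction scanner output, version 10.7.3.1 by its header and 9.1 by the labels, with a processed intensity per spot that is background-subtracted and linear. A further deposited file holds intensity values of the same arrays in 1 table, not scaled between arrays, in which 2 arrays are exchanged relative to the scanner output.

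From the scanner output, controls were removed, replicate spots were averaged by probe, and 398 of 56605 probes with outlier flags were dropped. The log2 intensity was scaled to the 75th percentile of its array. Probes were matched by accession to RefSeq genes (GRCm38.p6), 32989 of all 56605 with success. The array design uses another build, so no position is given for a probe or gene, and the 2 upstream stretches printed have the positions of the RefSeq table. A probe was kept if well above background on all 3 arrays of a group, and the brightest probe stood for its gene. Differences were tested with limma 3.58.1 (R 4.3.3) on 6 arrays with group alone, on the adjusted p threshold of 0.05, and the code was tested on simulated data. The number of arrays limits the precision.

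The named genes are all members with all their probes, the pathway genes whose groups did not overlap, or for lists without one the largest difference in each direction, and the nearest gene of each member. Outside these rules, 4 Id genes were named after their values were seen. The members and lists were chosen with earlier results of these data known. The alternatives were 3 scalings or background corrections (normexp used median signals, since the files hold no mean signal), 2 filters, the table, slide and replicate blocks, all probes averaged, the methods' t-test, and arrays left out. The table by the same steps gave 16316 genes.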

Additional observations from a re-analysis of the deposited data

How the results depend on the processing

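No SMAD gene passed the adjusted test under any alternative. Of 199 recomputed SMAD differences, 42 equalled the main value, most by construction (blocks in a balanced design, filters, the t-test). Of the other 157, 126 kept their direction and 31 reversed. By the authors' table Smad2 was −0.19 and Smad4 −0.19, and a slide block on its values put Smad6 at 0.34. With the probes of a gene averaged, Smad4 was −0.079 and Smad7 −0.14, since their probes differ in sign. Without both exchanged arrays both Smad2 and Smad4 were −0.088. Leaving out 1 array, in the scanner output or in the table, gave −0.091 to 0.68 for Smad1, −0.32 to 0.18 for Smad2, 0.0048 (without rhTM replicate 1) to 0.18 for Smad3, −0.34 to 0.21 for Smad4, −0.021 to 0.17 for Smad5, −0.43 to 0.13 for Smad6, −0.046 to 0.37 for Smad7 and −0.75 to −0.29 for Smad9 (−0.72 without rhTM replicate 2 and −0.29 without rhTM replicate 1 of the scanner output). The cause of these reversals other than by averaging was not tested. Without rhTM replicate 1 of the table, the rhTM arrays left are both arrays of slide 2, and all saline arrays are on slide 1. Treatment and slide coincide in that fit, so its values cannot tell them apart. It gave the −0.091 of Smad1, −0.32 of Smad2, −0.34 of Smad4 and 0.37 of Smad7. Genes past the adjusted test numbered 0, and 432 by the table after slide blocking (a fit that rests on rhTM replicate 1), 1 without both exchanged arrays, 1 on slide 1 alone and 0 to 589 with 1 array left out (589 without rhTM replicate 1 of the table, 3 without saline replicate 1 of the scanner output). Of pathway genes 2 passed by the table after slide blocking, and 0 to 5 with 1 array left out, while their median difference ran from −0.035 to 0.040. The 589 genes and the 5 pathway genes both came from the fit without rhTM replicate 1 of the table, where treatment and slide coincide. At unadjusted p under 0.05 the methods' t-test gave 340 genes, and 2279 passed by the authors' values. The labels state no pairing of mice by replicate number. Deviations of same-numbered arrays correlated at −0.30, 0.44 and −0.45. The highest correlation, 0.64, was between saline replicate 1 and rhTM replicate 3, both on slide 2. With 3 arrays a group on 2 slides, these values cannot decide whether replicate numbers pair the mice. The replicate block left Smad1 at 0.52 and 0 genes past the adjusted test, with 376 at unadjusted p under 0.05. Smad9, near background, ran from −0.85 to −0.09 over the alternatives that left out no single array.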
